A study of Mus musculus with 6 samples.

Results

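Gt(ROSA)26Sor, the noncoding transcript of the mouse Rosa26 locus, was examined together with Thumpd3 and Setd5, the genes on either side of it. A probe was taken where the scanner files give one of these 3 names, which selected 9 of the 41174 probes on the array: 1 for Gt(ROSA)26Sor, 3 for Thumpd3 and 5 for Setd5. The genes were chosen by the difference of Gt(ROSA)26Sor in log2 ratio between mutant and control arrays, which was already known, and by their place beside it. For that reason, values of the 3 genes for mutant against control are given as a description and without a test. The question was whether the transgene insertion goes with a change of the Rosa26 transcript alone or also of the genes beside it.

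RNA came from epithelial sheets of the forestomach, the part of the mouse stomach whose lining is squamous. Controls (3 samples) had K5-CreER, a recombinase that acts once tamoxifen is given and is driven by the promoter of the basal cell gene keratin 5. Mutants (3 samples) had K5-CreER and, on both copies of the Rosa26 locus, a Sox2 transgene (Rosa26Sox2/Sox2). Both groups received 2 doses of tamoxifen at 7 weeks of age, were 12 weeks old per the labels and were of a mixed 129/Sv and C57/BL6 background. Recombination could thus begin only in cells that used the keratin 5 promoter when tamoxifen acted, whereas the insertion itself is present in every cell of a mutant mouse. No label says whether RNA was pooled. On each of the 6 arrays the sample was labelled with Cy5 and a reference RNA from 11 mouse cell lines with Cy3, and every log2 ratio below is sample over reference.

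The Rosa26 locus was found through a gene trap that was active in nearly all tissues, and it has since become the standard place in the mouse genome for inserting transgenes. Its main transcript has no known protein product, and constructs are usually placed in an intron near its start; the labels do not describe the construct used here. Thumpd3, which overlaps the locus from the other strand, encodes a tRNA methyltransferase whose human counterpart works with the small partner TRMT112. Setd5 encodes a SET-domain chromatin protein which binds the HDAC3 and NCoR corepressor complex and the PAF1 transcription elongation complex, and loss of a copy in humans causes intellectual disability.

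The probes are shown because their places decide which stretch of each transcript was measured. Coordinates are those of the scanner files, whose headers name build mm9. The Gt(ROSA)26Sor probe lies on the minus strand of chromosome 6 at chr6:113021054-113021113 (transcript position 446). Thumpd3 is read on the plus strand by a probe near the start of its transcript (chr6:112997637-112997696, transcript position 292) and by a pair near its end (chr6:113017567-113017626 and chr6:113017650-113017709, positions 1642 and 1725). Setd5 is also read on the plus strand, and its brightest probe starts at position 6383 of the transcript (chr6:113103332-113103391). Another (chr6:113063549-113063608), called the clone probe below, was designed on a cDNA clone. The first Setd5 probe (chr6:113057288-113057347) was also designed on a cDNA clone. The sequences are given 5′ to 3′ as the array design holds them.
Gt(ROSA)26Sor: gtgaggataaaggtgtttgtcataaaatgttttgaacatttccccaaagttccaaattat
Thumpd3, near the transcript start: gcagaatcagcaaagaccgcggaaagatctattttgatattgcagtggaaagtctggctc
Thumpd3, near the transcript end, first: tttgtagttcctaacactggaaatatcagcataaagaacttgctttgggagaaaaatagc
Thumpd3, near the transcript end, second: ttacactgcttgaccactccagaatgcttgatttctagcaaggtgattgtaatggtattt
Setd5, brightest probe: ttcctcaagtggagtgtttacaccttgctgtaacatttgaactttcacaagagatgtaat
Setd5, clone probe: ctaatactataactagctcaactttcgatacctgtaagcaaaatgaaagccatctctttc

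The Gt(ROSA)26Sor probe had a GC content of 31.7%, the lowest of the 9 probes, against a median of 41.7% over all probes that passed the filter, and the highest of the 9 had 45%. The nearer Thumpd3 probe ended 3.34 kb before the Gt(ROSA)26Sor probe, and the first Setd5 probe began 36.2 kb after it. In the newer annotation that accompanies control 3, the 2 probes near the end of Thumpd3 sit 282 bases nearer to the Gt(ROSA)26Sor probe. In RefSeq (GRCm38.p6, used here for gene order alone) Thumpd3 and Gt(ROSA)26Sor overlap, and Gt(ROSA)26Sor and Setd5 do not. All 9 probes were well above background in both channels on all 6 arrays and none was saturated.

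The arrays were not equally distinct, which bears on every test below. Over the tested genes, the difference in log2 ratio between controls 1 and 2 had a median absolute deviation, scaled to match an SD, of 0.156. That of mutants 2 and 3 was 0.104, and the other pairs gave 0.326 to 0.73. Whether the arrays of such a pair hold RNA of separate mice beyond what the labels call biological replicates was not tested. Control 3 was the dimmest array, with 62.6% of probes well above background against 73.1% to 76.2% on the others, and it was on a slide, a scan day and a scanner software version of its own. All mutants were on 1 slide that held no control. Slide and genotype therefore cannot be told apart. In limma 581 of 20559 genes passed an adjusted p of 0.05, which is 2.83%, and 37.9% of genes had groups that did not overlap. That count was 57 without control 1, 43 without control 2, 1482 without control 3, 34 without mutant 2 and 36 without mutant 3. With the near-identical pairs averaged, which leaves 2 values per group, it was 0, while 2197 genes had an unadjusted p under 0.05.

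Gt(ROSA)26Sor was lower in every mutant than in every control. Its log2 ratio was 1.15, 1.20 and 0.78 in controls 1 to 3 and -2.61, -2.74 and -2.59 in mutants 1 to 3. The 3 mutants lay close together, and the lowest control stood far above the highest mutant. The means were 1.05 ± 0.23 and -2.65 ± 0.08 (SD, n = 3 each), a difference of -3.69 (SE 0.15), so that the mutant level was 7.73% of the control level, or 12.9-fold lower. In controls the transcript was 2.06 times as abundant as in the reference RNA, and in mutants the reference held 6.27 times as much as the sample. Of all tested genes, 3 had a larger fall. Since bulk RNA was measured, fewer cells of a type and less RNA per cell cannot be told apart.

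The signals behind these ratios showed which channel moved. The raw Cy5 signal of the Gt(ROSA)26Sor probe was 7944, 8648 and 2250 in controls 1 to 3 and 639, 589 and 635 in mutants 1 to 3. The low value of control 3 came with a lower reference signal on the same array, 1912 against 3165 to 3939 on the other 5. In mutants the sample signal was still 14.0 to 14.9 times its local background, so the probe was measured there and not at a floor. After normalization of each channel the sample channel differed by -3.65 log2 units between groups and the reference channel by 0.04. The fall was therefore present in the sample channel by itself. Without control 3 the difference of the ratio was -3.83, and over all 21 alternatives it ran from -3.91 to -3.61. In the authors' deposited table of log2 ratios the difference was -3.83.

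**Figure D1:**
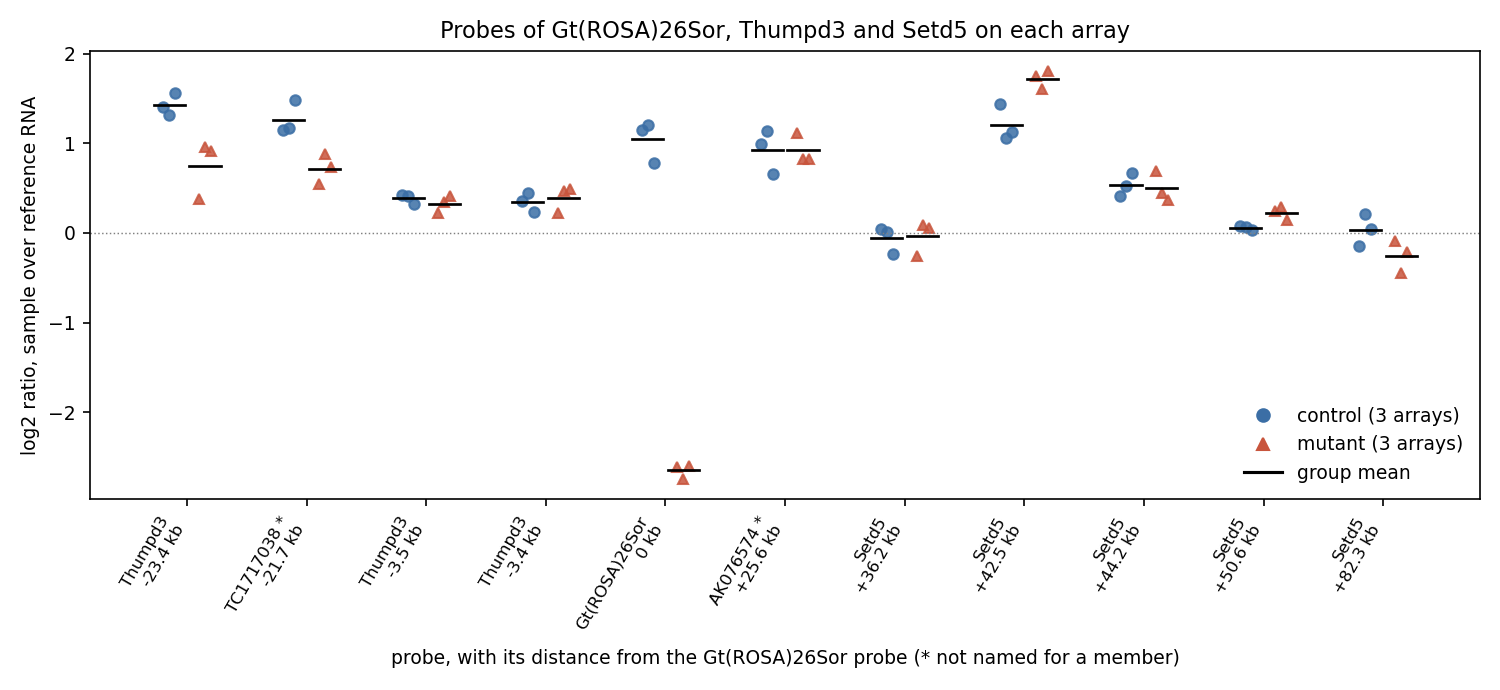
Log2 ratio of sample over reference (vertical axis) for the 9 probes of Thumpd3, Gt(ROSA)26Sor and Setd5 in their order along chromosome 6. A point is given per array and a bar at each group's mean. Probes TC1717038 and AK076574, which lie among them, are starred as not named for a member. The Gt(ROSA)26Sor mutants sit at -2.74 to -2.59 against 0.78 to 1.20 in controls, while the differences of the other 8 member probes lie between -0.68 and 0.51.

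**Figure D2:**
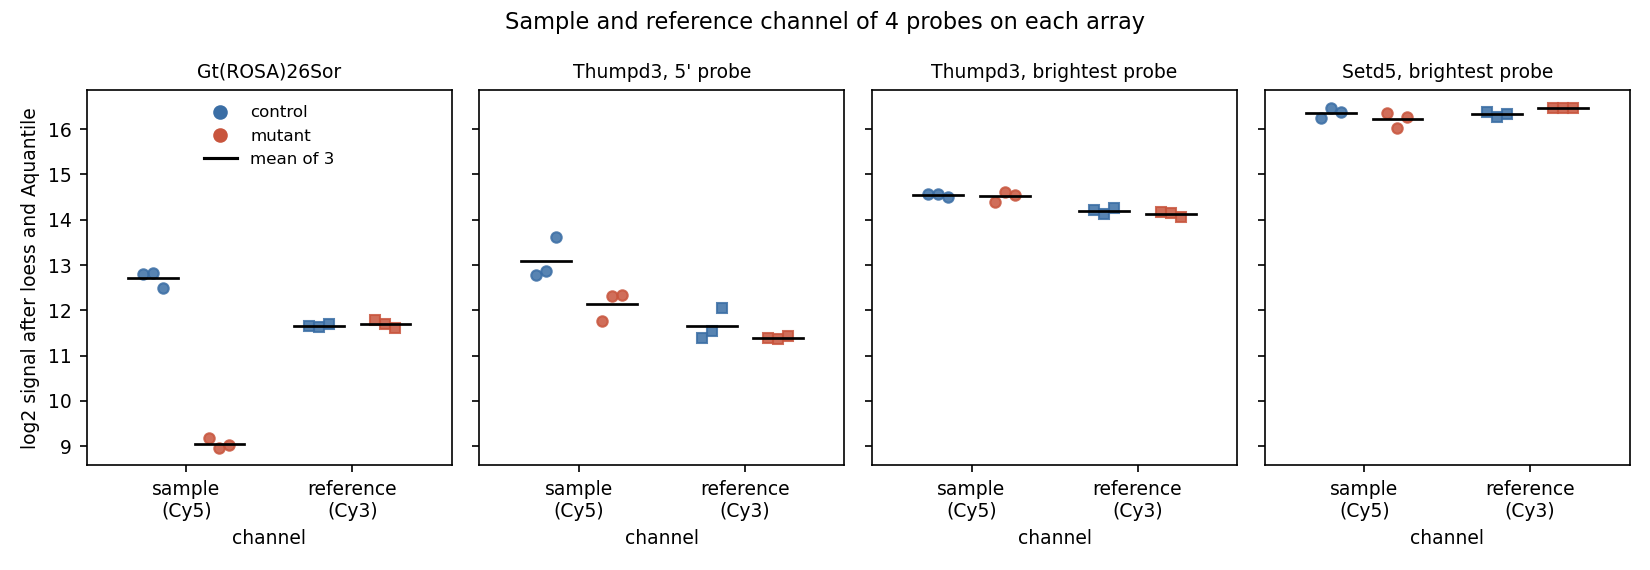
Log2 signal of the sample channel and of the reference channel (vertical axes) on each array after loess and between-array normalization, for 4 probes. For Gt(ROSA)26Sor the sample channel differs by -3.65 between group means and the reference channel by 0.04. For the brightest Setd5 probe the sample channel differs by -0.15 and the reference channel by 0.14.

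Thumpd3 gave different values at the ends of its transcript. Its brightest probe, the second of the pair near the transcript end and the probe that represents the gene in the fit, read 0.36, 0.44 and 0.24 in controls 1 to 3 and 0.22, 0.46 and 0.49 in mutants 1 to 3. The groups overlapped, with the lowest value in mutant 1. The means were 0.35 ± 0.10 and 0.39 ± 0.15 (SD, n = 3 each), a difference of 0.045 (SE 0.13). Its neighbour along the transcript read 0.42, 0.42 and 0.32 in controls and 0.22, 0.34 and 0.41 in mutants, a difference of -0.061 (SE 0.11). These groups overlapped as well.

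The Thumpd3 probe near the transcript start, 23.4 kb from the Gt(ROSA)26Sor probe, read 1.40, 1.31 and 1.56 in controls 1 to 3 and 0.37, 0.95 and 0.91 in mutants 1 to 3. Every mutant lay below every control here, with mutant 1 the lowest by a wide margin. The means were 1.42 ± 0.13 and 0.75 ± 0.32 (SD, n = 3 each), a difference of -0.68 (SE 0.19), which puts the mutants at 62.5% of controls. Without mutant 1 the difference was -0.49, without control 3 it was -0.61, and with the near-identical pairs averaged it was -0.80. After normalization of each channel the sample channel differed by -0.95 and the reference channel by -0.27, so the fall of the ratio lay in the sample channel and was made smaller by the reference. Without control 3 these values were -0.68 and -0.073.

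A further probe in the same stretch carries no member's name in the scanner files. It lies 21.7 kb from the Gt(ROSA)26Sor probe (chr6:112999399-112999459) and is listed as TC1717038; the description in the files ties it to ROSA26AS, the antisense transcript of the locus, and to Thumpd3. It read 1.14, 1.17 and 1.48 in controls 1 to 3 and 0.54, 0.88 and 0.73 in mutants 1 to 3. The groups did not overlap, as with the start probe of Thumpd3, but the difference of -0.55 (SE 0.15) had an adjusted p of 0.114 in limma over all genes. Averaging all 3 named Thumpd3 probes gave a gene difference of -0.23 in place of 0.045.

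Setd5 was read by 5 probes that did not move one way. The brightest, 82.3 kb from the Gt(ROSA)26Sor probe, read -0.14, 0.21 and 0.04 in controls 1 to 3 and -0.09, -0.45 and -0.21 in mutants 1 to 3. The groups overlapped, since mutant 1 lay above control 1. The means were 0.04 ± 0.18 and -0.25 ± 0.18 (SD, n = 3 each), a difference of -0.29 (SE 0.15). The sample channel differed by -0.15 and the reference channel by 0.14. With the sample channel alone quantile-normalized between arrays the difference was -0.036, and averaging the ratios of all Setd5 probes gave 0.076.

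The Setd5 clone probe, 42.5 kb away, read 1.44, 1.05 and 1.13 in controls 1 to 3 and 1.75, 1.60 and 1.80 in mutants 1 to 3. All mutants stood above all controls, with a difference of 0.51 (SE 0.15). The split of this difference between the channels rested on control 3. With all arrays the sample channel differed by -0.007 and the reference channel by -0.52, and control 3 stood at 10.2 on the log2 scale in the reference channel against 8.80 to 8.96 on the other 5 arrays. Without control 3 the sample channel differed by 0.37 and the reference channel by -0.10, and the ratio by 0.47.

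The remaining 3 Setd5 probes gave differences of 0.024 (SE 0.15), -0.035 (SE 0.14) and 0.17 (SE 0.11). Groups overlapped at the first and second of these. The third was higher in every mutant, 0.25, 0.29 and 0.15 against 0.08, 0.07 and 0.03 in controls, but was the dimmest member probe at 2.76 to 11.5 times its background. In the sample channel the second and the third differed by 0.38 and 0.40, and without control 3 by 0.011 and 0.17; the first differed by -0.077 and, without control 3, by -0.023. With the sample channel alone quantile-normalized, the difference of the second turned to 0.34 and that of the third was 0.32. In all, groups did not overlap at 4 of the 9 member probes, against 36.9% of all probes, a count from the contrast that chose the genes. The fit over all genes called 1 of the 3, Gt(ROSA)26Sor, beside 2.83% of all genes (1.43% lower and 1.4% higher in mutants); the choice of the genes fixed that call, and nothing is read from it.

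The neighbourhood was then read by position alone, leaving the 3 members out. Of 33 genes tested within 1 Mb of the Gt(ROSA)26Sor probe, 1 passed the test, which is 3.03% against 2.83% over the array. Their differences ran from -0.82 to 1.29 with a median of 0.12, and 20 were positive and 13 negative, where the median of all genes was 0.0054. Groups did not overlap for 14 of the 33, or 42.4%, against 37.9% of all genes. An unadjusted p under 0.05 in limma was found for 10 of the 33, against 23.9% of all genes. Within 0.25 Mb, 0 of 4 genes passed in limma and 1 had an unadjusted p under 0.05. That was TC1717038, which was counted here though it is tied to Thumpd3. Within 0.5 Mb, 1 of 20 passed and 7 had an unadjusted p under 0.05. Within 5 Mb, 3 of 82 passed, within 10 Mb, 7 of 147, and along chromosome 6, 51 of 1088 or 4.69%.

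The gene that passed within 1 Mb was Creld1, 422 kb from the Gt(ROSA)26Sor probe, which encodes a membrane-anchored protein with EGF-like domains needed for heart valve and septum formation. It read 1.13, 1.23 and 1.47 in controls 1 to 3 and 0.32, 0.55 and 0.51 in mutants 1 to 3, so that the groups lay well apart. Creld1 fell by 0.82 log2 units (SE 0.14), or 1.76-fold, with an adjusted p of 0.0433 in limma. The call was lost without control 1 (adjusted p = 0.124), control 2 (0.155), mutant 1 (0.072), mutant 2 (0.155) or mutant 3 (0.172), and kept without control 3 (0.0311). With the pairs averaged its adjusted p was 0.455.

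Of the nearest genes on the Thumpd3 side beyond TC1717038, none passed. Srgap3, which acts in developing neurons, lay 353 kb away and differed by 0.56 (limma adjusted p = 0.105). Rad18, a ubiquitin ligase of the replication damage response, differed by 0.90 (adjusted p = 0.0631), reading -2.15, -2.14 and -2.28 in controls 1 to 3 and -0.91, -1.46 and -1.50 in mutants 1 to 3. Its groups did not overlap, and mutant 1 was the highest array. Cav3, the caveolin of muscle, differed by 0.55 (adjusted p = 0.335), and control 3, at -0.31, lay below the other 5 arrays.

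None of the nearest genes on the Setd5 side passed either. The probe of cDNA clone AK076574 lies 25.6 kb away, between the Gt(ROSA)26Sor probe and the first Setd5 probe, on the plus strand like Setd5. That Setd5 probe starts at position 1913 of its own transcript. Whether AK076574 lies inside the Setd5 gene was not tested, so it may not be a separate neighbour. AK076574 read 0.99, 1.13 and 0.65 in controls 1 to 3 and 1.12, 0.82 and 0.83 in mutants 1 to 3. Its groups overlapped and its difference was -0.0025 with a 95% interval of -0.41 to 0.41. Lhfpl4, a partner of inhibitory GABA receptors at synapses, differed by 0.10 (limma adjusted p = 0.706). Mtmr14, a phosphoinositide phosphatase, differed by -0.23 (adjusted p = 0.433). Brpf1, a scaffold of histone acetyltransferase complexes, differed by 0.38 (adjusted p = 0.195), and its groups did not overlap.

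**Figure D3:**
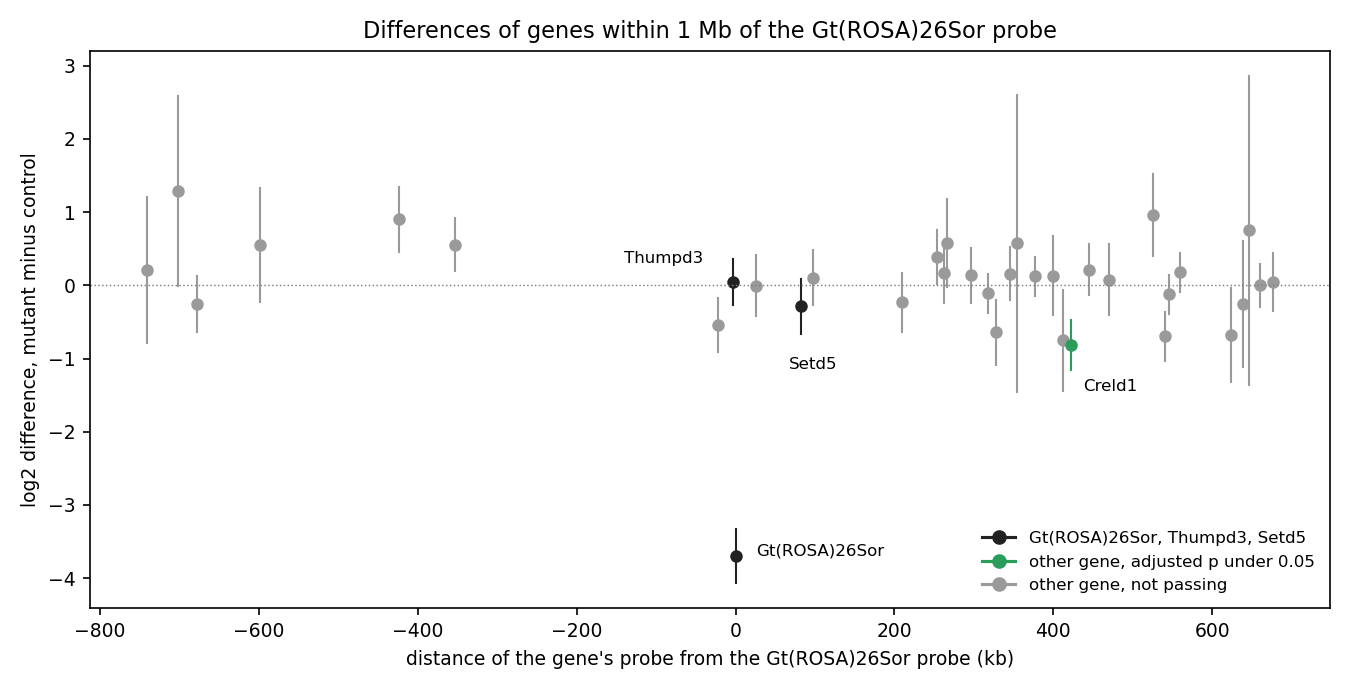
Difference of mutant minus control in log2 ratio (vertical axis) with its 95% interval against distance from the Gt(ROSA)26Sor probe in kb (horizontal axis), for genes tested within 1 Mb. Gt(ROSA)26Sor stands at -3.69, while the 33 genes other than the members lie between -0.82 and 1.29.

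Genes that share a process with the neighbours were counted next. Of 31 tested tRNA methylation genes, the process of Thumpd3, 0 passed in limma and 3 had an unadjusted p under 0.05, against 23.9% of all genes. The list's median difference was 0.0013. Cdk5rap1, a modifier of mitochondrial tRNA, read 0.40, 0.47 and 1.17 in controls 1 to 3 and -0.49, -0.32 and -0.28 in mutants 1 to 3, a difference of -1.05 (adjusted p = 0.0705). Control 3 was the array farthest from its group there. Trmt10a, a guanine methyltransferase of tRNA, differed by 0.61 (adjusted p = 0.0731), and Mettl8, a cytosine methyltransferase of mitochondrial tRNA, by 0.47 (adjusted p = 0.105).

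Among 12 tested partners of Setd5, 0 passed in limma, 1 had an unadjusted p under 0.05 and the median difference was -0.018. Tbl1x, a subunit of the NCoR complex, differed by -0.59 (adjusted p = 0.153). Ctr9 and Leo1, subunits of the PAF1 complex, differed by -0.49 (adjusted p = 0.23) and 0.30 (adjusted p = 0.383). Of 34 tested genes with a SET domain, 9 had an unadjusted p under 0.05 in limma, against 23.9% of all genes. Groups did not overlap for 15, against 37.9% of all genes. The median difference was -0.047, and 1 of the 34 passed, or 2.94% against 2.83% over the array.

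That gene was Setd1b, the catalytic subunit of a complex that methylates histone H3. It read 1.02, 1.17 and 1.09 in controls 1 to 3 and 0.19, 0.02 and 0.09 in mutants 1 to 3. The groups lay well apart, and Setd1b fell by 1.00 log2 units (SE 0.11, limma adjusted p = 0.0164). Leaving out control 1, control 2, mutant 2 or mutant 3 ended the call, with adjusted p of 0.083, 0.101, 0.115 and 0.11. Smyd5 differed by 0.65 (adjusted p = 0.0654) and Kmt2c, another histone H3 methyltransferase, by -0.51 (adjusted p = 0.0662).

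Genes used in most tissues, like Gt(ROSA)26Sor, were read as a further comparison. Of 18 tested, 1 passed, or 5.56% against 2.83% over the array, and their median difference was 0.21. In limma 7 of the 18 had an unadjusted p under 0.05, against 23.9% of all genes. Groups did not overlap for 12, against 37.9% of all genes, and 14 differences were positive and 4 negative. Tfrc, the transferrin receptor, was higher in mutants, at 1.04, 1.54 and 1.45 in mutants 1 to 3 against -0.16, 0.01 and 0.11 in controls 1 to 3. The groups did not overlap, and Tfrc rose by 1.36 (SE 0.17, limma adjusted p = 0.021). That call was lost without control 1, control 2, mutant 2 or mutant 3, at adjusted p of 0.102, 0.105, 0.113 and 0.115. Pgk1, a glycolytic kinase, differed by 0.93 (adjusted p = 0.0725) and Eif4a2, a translation initiation helicase, by -0.50 (adjusted p = 0.0953).

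**Figure D4:**
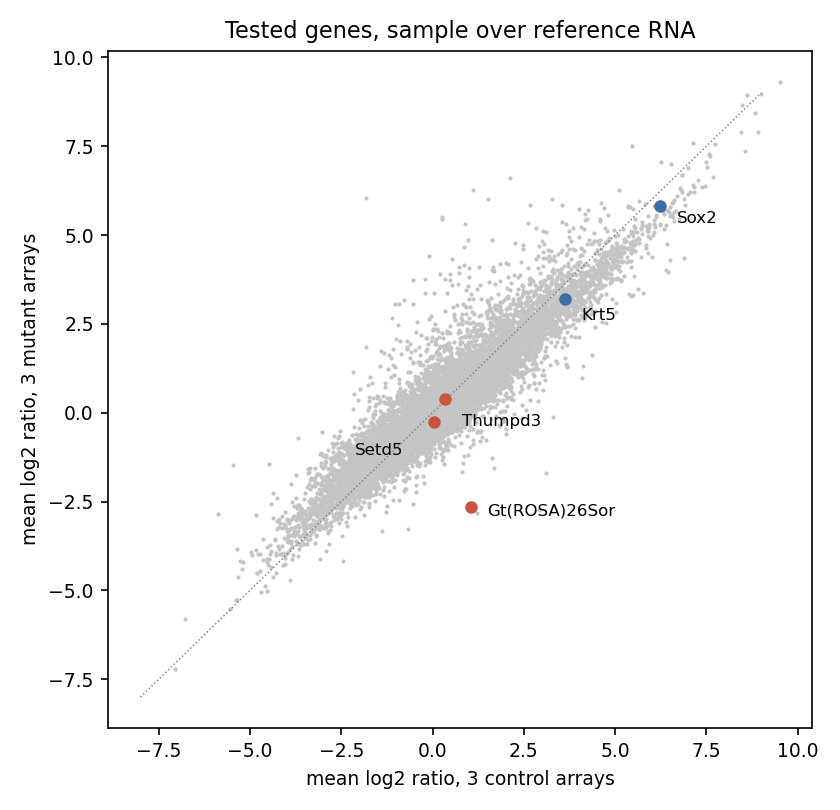
Mean log2 ratio of the 3 mutant arrays (vertical axis) against that of the 3 control arrays (horizontal axis), a point per tested gene, with Gt(ROSA)26Sor, Thumpd3, Setd5, Sox2 and Krt5 marked. Gt(ROSA)26Sor lies at 1.05 and -2.65, far below the diagonal on which equal values fall, and Thumpd3 and Setd5 lie close to that diagonal.

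Genes whose pattern was most like Gt(ROSA)26Sor were ranked by Pearson's r of the log2 ratio over the 6 arrays, as a description, since a rank on 2 groups of 3 arrays mostly orders genes by how they split the groups. The 5 highest were Trim34a (r = 0.998), Edem1 (0.997), Zfp991 (0.997), Plekhg3 (0.996) and Rnf216 (0.996). Trim34a belongs to the tripartite motif family, and Edem1 takes part in clearing misfolded glycoproteins from the endoplasmic reticulum. Edem1 also lies on chromosome 6, 4210 kb from the Gt(ROSA)26Sor probe, among the genes that passed within 5 Mb. It differed by -0.65 (limma adjusted p = 0.0375, and 0.145 without control 1). The differences of the 5 genes were smaller than that of Gt(ROSA)26Sor, from -0.31 for Rnf216 to -1.77 for Zfp991. With the mean of all probes of a gene, Trim34a differed by -0.19 and Rnf216 by -0.13. Edem1, Zfp991 and Plekhg3 then differed by -0.66, -1.77 and -0.49. In all, 372 of 20482 genes had an r over 0.95 and 348 an r under -0.95. Thumpd3 had an r of -0.18 and Setd5 of 0.71.

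The transgene itself and the tissue were checked last. Sox2, a transcription factor of foregut progenitors, read 6.26, 6.09 and 6.38 in controls 1 to 3 and 5.67, 5.83 and 5.95 in mutants 1 to 3, a difference of -0.43 (SE 0.14, limma adjusted p = 0.143). No mutant was above a control. The array's Sox2 probe lies downstream of the coding sequence. Since no label states if the construct includes that stretch, it is no check of the transgene. Krt5, whose promoter drives the recombinase, read 3.62 ± 0.08 in controls and 3.20 ± 0.24 in mutants (SD, n = 3 each), a difference of -0.42 (adjusted p = 0.178).

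All 8 squamous markers were well above background on all 6 arrays, and their median log2 ratio lay between 2.83 and 4.27 on the arrays. None of the 8 passed in limma, 4 had an unadjusted p under 0.05, against 23.9% of all genes, and their median difference was -0.57. Markers of glandular stomach were detected too, 12 of 12 on 5 arrays and 8 of 12 on control 3, where their median was 0.40 against 2.22 to 4.07 on the others. Markers of muscle and fibroblasts had their lowest medians on control 3 (-2.14) and mutant 1 (-1.40) and lay between -0.38 and 0.13 on the others. None of the glandular or muscle and fibroblast markers passed in limma, and 0 of either had an unadjusted p under 0.05. Of 6 immune markers 2 passed in limma and were higher in mutants, beside 1.4% of all genes. They were the macrophage genes Cd68 (1.49, adjusted p = 0.0166) and Csf1r (0.75, adjusted p = 0.0488). Both calls were lost without control 1, control 2, mutant 2 or mutant 3, at adjusted p of 0.0829 to 0.104 for Cd68 and 0.141 to 0.179 for Csf1r, and that of Csf1r also without mutant 1 (0.0682). Their part in the values of the 3 members was not tested. Without control 3 and mutant 1 together, a choice made after seeing the data, Gt(ROSA)26Sor differed by -3.85, Thumpd3 by 0.077, its start probe by -0.42 and Setd5 by -0.37.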

How the data were processed

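RNA of 3 control and 3 mutant forestomach samples was hybridised to 2-colour Agilent arrays without dye swap, per the labels. Deposited spot intensity values came from Agilent Feature Extraction, version 10.5.1.1 and, for control 3, 10.7.3.1 per the file headers, whereas the submitters' processing notes give 9.1. Build mm9 is named in the file headers. The authors also deposited a table of log2 ratios, whose normalization and centring are not given in the sources used here. Its columns for mutants 1 and 3 matched the scanner files of mutants 3 and 1 best (r = 0.963 and 0.957, against 0.865 and 0.868 for the same numbers), and numbers here follow the scanner files. Slopes against them were 0.833 to 0.921 and column medians 0.026 to 0.06.

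Mean signals and local background medians were corrected by normexp (offset 50) and normalized by loess within each array in limma 3.58.1 under R 4.3.3, with weight 0 for control and outlier spots; spots of a probe were then averaged. A probe entered when its sample channel was well above background on 3 or more of the 6 arrays. For each gene the probe of highest mean sample intensity was used, which left 20559 genes. Names of 32699 probes (79.4%) came from the RefSeq table of GRCm38.p6. Groups were compared by lmFit and eBayes, two-sided, with Benjamini-Hochberg adjustment over all genes and a threshold of 0.05. The fit was tested on simulated data whose arrays were independent of each other, so that test does not cover the near-identical pairs. The fit has 4 residual degrees of freedom, and the number of arrays limits the precision. P-values reflect only how these samples vary, and some of that variation may be technical.

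The members, the gene lists and the tests were chosen with earlier results of these data known. The genes named are the 3 members with every probe, Sox2, Krt5, the 4 tested genes nearest on each side, any gene within 1 Mb that passed, up to 3 genes of each list with the smallest p, and the 5 genes most like Gt(ROSA)26Sor. Alternatives concerned background correction, normalization, channel, the deposited table, the filter, the probe of a gene, slide, scan day, array weights, replicate number, near-identical arrays and each array left out.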

Additional observations from a re-analysis of the deposited data

How the results depend on the processing

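The difference of Gt(ROSA)26Sor kept its direction in all 21 alternatives (-3.91 to -3.61, and -3.83 to -3.61 with each array left out in turn). It stayed at -3.69 with both changes of the filter, the mean of probes and the replicate block, which could not move it. Scan day as a block gave the values of leaving out control 3, the only array of its scan day, so it is no separate check. The difference of Thumpd3 moved to -0.23 with the mean of its probes, and ran from -0.0096 to 0.13 with each array left out. That of Setd5 moved to -0.036 when only the sample channel was used, after quantile normalization, and to 0.076 with the mean of its probes, and ran from -0.38 to -0.19 with each array left out. The 581 calls over all genes became 325 with processed signals, 269 with median centring, 306 in the sample channel, 4 with slide as a random block, 1482 with scan day as a block, 11552 with array weights, 0 with near-identical arrays averaged (2197 at an unadjusted p under 0.05 in limma) and 7732 without control 3 and mutant 1 together, a choice made after seeing the data. With each array left out the count ran from 34 to 1482. Array weights gave control 3 a weight of 0.0769 and mutant 3 one of 7.62. The single call within 1 Mb became 0 with processed signals, median centring, scaled arrays, the sample channel, the deposited table, slide as a block and averaged arrays, 19 with array weights and 12 without control 3 and mutant 1; with each array left out it ran from 0 to 2. The 0 calls among tRNA methylation genes became 1 with scan day, 12 with array weights and 6 without control 3 and mutant 1, and ran from 0 to 1 with each array left out. The single call among Setd5 partners and SET-domain genes became 0 with median centring, the sample channel, slide as a block and averaged arrays, 3 with scan day, 25 with array weights and 18 without control 3 and mutant 1, and ran from 0 to 3 with each array left out. The replicate number as a block left 137 calls over all genes, 0 within 1 Mb and 0 among Setd5 partners and SET-domain genes. Deviations of same-numbered arrays correlated by 0.00468, 0.0194 and 0.126, and those of differently numbered arrays by -0.125 to 0.0891. With near-identical arrays in both groups, these values cannot decide whether same-numbered samples were paired. Directions turned for AK076574, to 0.074 with median centring, 0.091 with scaled arrays, 0.042 with slide as a block and 0.11 with averaged arrays, and from -0.14 to 0.10 with each array left out; for Sox2, to 0.10 with scaled arrays; for Krt5, to 0.30 in the sample channel; for Mtmr14, to 0.048 with the mean of its probes; and for Lhfpl4, to -0.001 with scan day, and -0.001 to 0.21 with each array left out. The causes of these shifts were not tested. Arrays per group (3) and the dim sample signal of control 3 limit how small a difference of Thumpd3 or Setd5 could be seen.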
